A study of Rattus norvegicus with 4 samples.

Results

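Homozygous and heterozygous Hirosaki hairless rats (HHR) were compared on day 1 of lactation by setting 1 mammary gland array of each side by side, 2 of the 4 arrays of the study. HHR is a hairless mutant rat strain known for the loss of a group of type II (basic) keratin genes, and which keratin genes are lost is not given in the sources used here. The other arrays came from Sprague-Dawley rats (SDR), 1 at day 1 of lactation and 1 at day 1 of involution, when the gland regresses after suckling ends. The labels give no drug or transgene for any group, and the number and age of the animals behind an array are not stated in the labels. Both HHR arrays share strain, tissue and day and differ in genotype as labelled. Each value is a MAS5 signal, a linear brightness of a probe set. Signals under 91.5, below which 40% of all values of the 4 arrays lay (controls left out), were raised to that floor. Of 14217 genes with a probe set of their own, 10877 were above the floor in at least 1 HHR array and are called measured, and 9916 were above it in both. With 1 array per group no value has a replicate error and no test was possible, so a gene is called higher or lower only by the size of its difference, from 2-fold upward, and the animals and their genotype cannot be told apart.

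The mammary gland grows by division of its epithelial cells through pregnancy and into the first days of lactation, when the alveoli also take up full milk secretion. Cell division needs gene sets that are transcribed in waves, first for DNA replication and then for mitosis, and their transcripts are scarce in resting cells. When suckling ends, the gland switches on Stat3 signalling, early response transcription factors and acute phase genes within hours, and milk synthesis genes fall later. In tissue RNA, fewer cells of a type and less RNA per cell cannot be told apart.

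In all, 409 genes (3.76% of those measured) were higher in homozygous HHR by 2-fold or more and 341 (3.14%) were lower by as much, 6.90% in either direction. Genes of dividing cells made up a large share of the lower side. The higher side held some transcription factors of the early response, Stat3 targets and acute phase genes. The 3 early response lists made up 4.89% of it and all 58 lists together 21.3%, so most higher genes were in no list. Most genes differed little, with a median log2 difference (homozygous minus heterozygous) of 0.002 and a median size of 0.31 in either direction. The log2 signals of genes above the floor in both arrays correlated across genes with r = 0.947, a description in which genes are not independent. At 3-fold or more, 86 genes were higher and 44 lower. The threshold cuts a continuous range, since 172 genes lay between 1.9-fold and 2-fold and 131 between 2-fold and 2.1-fold. Among called genes with further probe sets, all of these ran in the same direction for 91 of 110 higher and 81 of 87 lower genes.

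**Figure D1:**
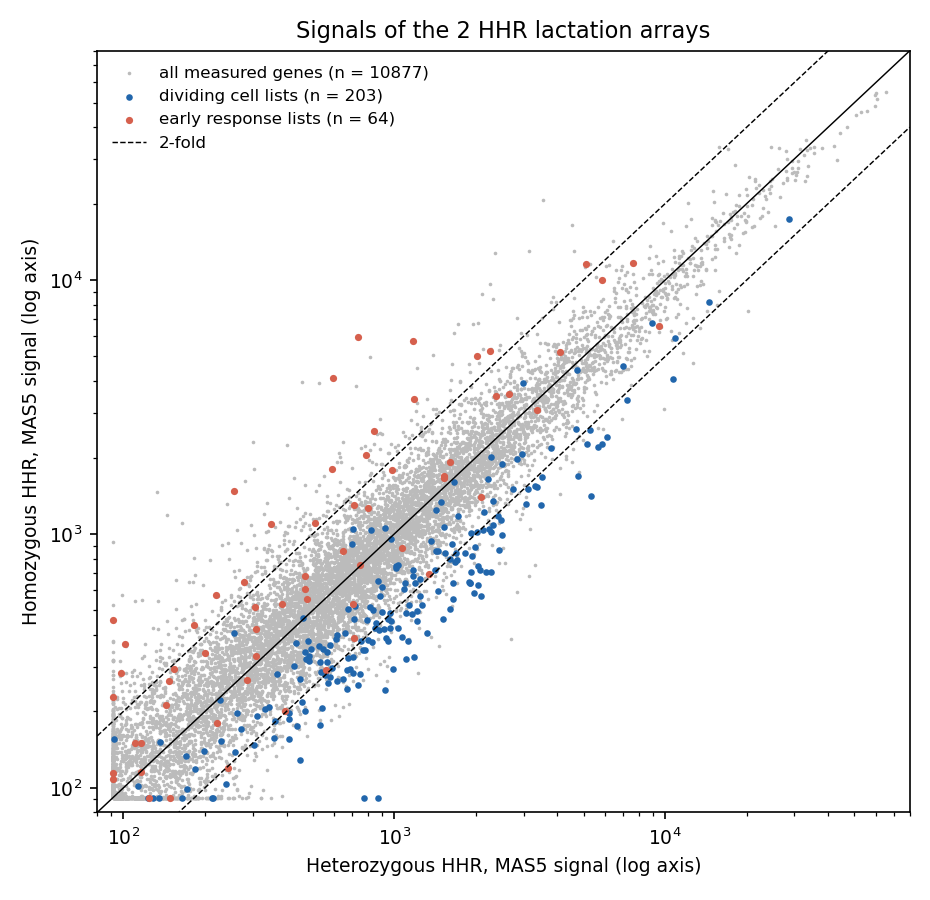
MAS5 signal of each measured gene in heterozygous HHR (horizontal, log axis) against homozygous HHR (vertical, log axis), 1 array each, with lines at equality and at 2-fold. Of the 203 genes in the dividing cell lists (blue) 194 lie below the line of equality, and of the 64 in the early response lists (red) 49 lie above it.

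The arrays were similar in scale but not in every quality measure. The mean signal after leaving out the lowest and highest 2% was 500.2 in all 4 arrays, and 10368 genes were above the floor in heterozygous and 10425 in homozygous HHR. The 3′ to 5′ signal ratio of Gapdh, which grows as RNA degrades, was 1.93 in heterozygous and 2.30 in homozygous HHR, while that of actin was 7.86 and 5.91. The 2 ratios thus differed in opposite directions between the HHR arrays, and their part in the results was not tested. Both arrays carried the RNA of a secreting gland. The casein Csn2 had signals of 55859 in heterozygous and 46514 in homozygous HHR, and the whey protein gene Wap 44145 and 37979. Of 12 measured milk protein genes 0 were past 2-fold, with a median log2 difference of -0.19.

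Genes of dividing cells were lower in homozygous HHR across all 8 lists that describe them. Of 203 measured members 99 were at least 2-fold lower (48.8%, against 3.14% of all measured genes) and 0 were higher by that much, with a median log2 difference of -0.99. The 99 genes were 29.0% of all lower genes. The general proliferation marker Mki67 had a signal of 10701 in the heterozygous array, 4059 in the homozygous array and 2496 in SDR lactation, 2.64-fold lower in homozygous than in heterozygous HHR. The mitotic DNA untangling enzyme Top2a had 6117, 2412 and 1322 in that order. In both genes the heterozygous array was the high one and SDR lactation was below either HHR array.

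The genes that drive entry into and exit from mitosis held the largest median difference, -1.32 on the log2 scale, with 23 of 30 measured members lower. Ube2c, which passes ubiquitin to the targets of the anaphase-promoting complex, had 5302 in the heterozygous array, 1408 in the homozygous array and 1203 in SDR lactation (3.76-fold lower in homozygous HHR). Cdc20, the activator of that complex, had 2097, 568 and 720 (3.69-fold lower, a log2 difference of -1.88 that was -1.08 with the mean of all probe sets). The mitotic cyclin Ccnb1 had 2046, 631 and 627 (3.24-fold lower). Homozygous HHR and SDR lactation lay close together for all 3 genes, and heterozygous HHR stood above both. The same order of heterozygous over homozygous signal held for the kinases Aurka (1514 and 464), Plk1 (1605 and 508), Ttk (1899 and 640) and Cdk1 (4780 and 1687), and for Espl1, the protease separase that parts sister chromatids (1322 and 408).

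The machinery that these regulators act on followed the same direction. Of 24 measured spindle, kinesin and cytokinesis genes 21 were lower (median -1.21), among them the kinesins Kif20a (1970 in heterozygous and 583 in homozygous HHR) and Kif18b (992 and 295). Troap and Gtse1, a pair of microtubule-associated proteins, were at the floor in homozygous HHR against 873 and 776 in heterozygous HHR, lower by a factor of at least 9.54 and at least 8.48 in turn. SDR lactation was also at the floor for Troap but had 317 for Gtse1. Of 28 centromere and kinetochore genes 15 were lower (median -1.06), led by Ska1 (1184 and 328), which couples kinetochores to microtubules, and Sgo1 (1106 and 323), the shugoshin that protects cohesion. Of 26 chromosome structure genes 9 were lower (median -0.85), with the condensin subunit Smc4 at 924 and 242.

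Genes of replication licensing and the fork were lower by less than the mitotic, spindle and kinetochore genes, but those of deoxynucleotide supply were not lower by less than the kinetochore genes. All 37 measured genes of replication licensing and the fork had lower signals in homozygous HHR, and 13 passed 2-fold (median -0.86). Pole, the catalytic subunit of the leading-strand polymerase, had 732 in the heterozygous array, 253 in the homozygous array and 162 in SDR lactation (2.89-fold lower in homozygous HHR). The licensing factor Cdt1 had 1218, 453 and 514 (2.69-fold lower). The sliding clamp Pcna had 10836, 5908 and 5515 and did not reach 2-fold. The 3 genes share the order of the mitotic ones, with the heterozygous array on top. Of 8 deoxynucleotide supply genes 5 were lower (median -1.07), including Dut (5855 and 2260), which removes dUTP, and the ribonucleotide reductase subunit Rrm1 (1822 and 842). Of 25 homologous recombination and checkpoint genes 8 were lower, among them the exonuclease Exo1 (542 and 206).

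The regulators of the G1 phase were mixed. Of 25 measured members 5 were lower and 0 higher (median -0.66), and 5 had a difference above 0. The cyclin Ccnd1 had 7259 in heterozygous and 3359 in homozygous HHR, and the proliferation transcription factor Foxm1 had 617 and 264. The inhibitors of cyclin-dependent kinases did not move as one: Cdkn1a had 538 and 287, and Cdkn1b had 2983 and 3939, both short of 2-fold.

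**Figure D2:**
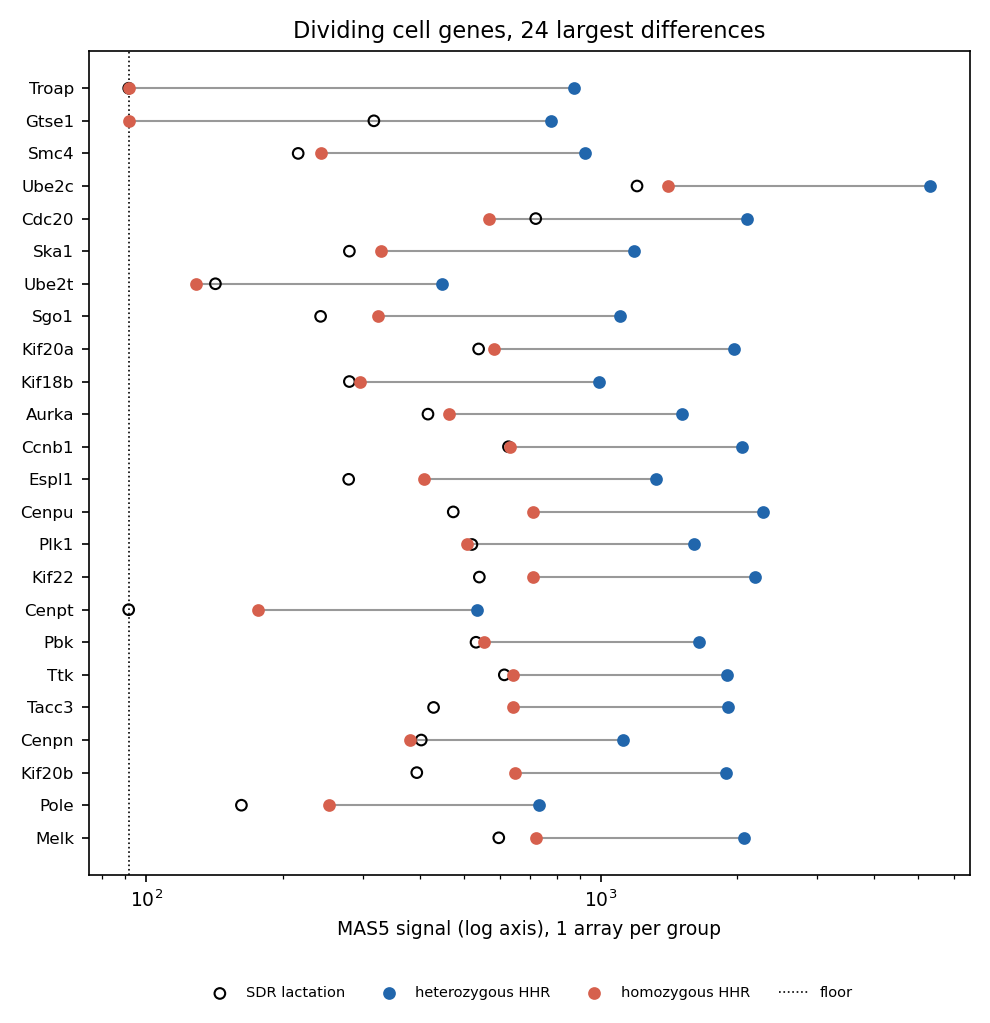
Signals (log axis) of the 24 dividing cell genes with the largest differences, for heterozygous HHR, homozygous HHR and SDR lactation, 1 array each, with the floor dotted. For Ube2c, Cdc20 and Ccnb1 the heterozygous array reads 5302, 2097 and 2046 while the other 2 arrays lie close together.

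Mitotic genes are known to share promoter elements, the CHR element and the CCAAT box, and replication genes the E2F site, so the promoter of 1 gene of each kind is shown from RefSeq, build GRCr8, 5′ to 3′, from 250 bases before the gene's start to 10 after. Capitals in Cdc20 (chr5:137255790-137256049, minus strand) mark matches to TTTGAA and CCAAT, and in Pole (chr12:52053653-52053912, minus strand) matches to TTTNGCGC and CCAAT, each on either strand.
Cdc20: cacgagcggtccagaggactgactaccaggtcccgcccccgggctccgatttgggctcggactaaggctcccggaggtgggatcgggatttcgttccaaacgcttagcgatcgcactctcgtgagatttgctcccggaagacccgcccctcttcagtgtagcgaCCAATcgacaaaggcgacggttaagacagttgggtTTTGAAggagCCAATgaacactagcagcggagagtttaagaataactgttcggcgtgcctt
Pole: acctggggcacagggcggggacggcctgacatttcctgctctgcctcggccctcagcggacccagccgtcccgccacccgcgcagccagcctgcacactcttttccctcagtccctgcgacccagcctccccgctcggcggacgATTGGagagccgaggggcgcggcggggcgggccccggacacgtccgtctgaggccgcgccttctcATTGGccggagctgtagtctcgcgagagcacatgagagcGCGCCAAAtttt

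In Cdc20 the TTTGAA match begins 51 bases before the start, between CCAAT matches that begin 86 and 41 bases before it. Promoters of 300 bases were listed for 9034 of the 10877 measured genes, and motifs were searched on both strands, where matches of different motifs may overlap. TTTGAA was found in 29 of 51 promoters (56.9%) of lower genes in the 3 mitosis lists, in 54.9% of the 71 promoters of all measured members of these lists, in 11.5% of those of all measured genes and in 18.1% of all 27457 RefSeq promoters. CCAAT was found in 72.5% of the 51 and in 37.8% of those of all measured genes. TTTNGCGC was found in 7 of 17 promoters (41.2%) of lower replication genes, in 45.0% of the 40 of all measured replication genes and in 2.31% of those of all measured genes. The shares were thus much the same in the lower members as in all measured members of their lists. Over all 282 lower genes with a promoter TTTGAA was found in 26.6%, and over the 321 higher ones in 11.8%. A match is a description of letters, not of a working site.

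Early response genes, which cells transcribe soon after a stimulus, had raised signals in homozygous HHR. Of 64 measured members of 3 lists 20 were higher by 2-fold or more (31.2%, against 3.76% of all measured genes) and 1 was lower, with a median log2 difference of 0.50. In the AP-1 family of transcription factors 5 of 14 were higher. Jun had 593 in the heterozygous array, 4106 in the homozygous array and 852 in SDR lactation (6.93-fold higher in homozygous HHR, a log2 difference of 2.79). The log2 difference of Jun was 1.57 with the brightest probe set whose name has no shared-probe suffix and 2.15 with the mean of all its probe sets. Its partner Fos had 789, 2047 and 402 (2.60-fold higher). Atf3, a stress-induced member, was at the floor in the heterozygous array, 460 in the homozygous array and 97 in SDR lactation, at least 5.02-fold higher. For these genes the homozygous array was the high one, the reverse of the dividing cell genes.

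Outside AP-1, 11 of 33 measured early response genes were higher and Ier5l was lower (244 and 120). Klf6, a zinc finger factor, had 1174 in the heterozygous array, 5741 in the homozygous array and 1470 in SDR lactation (4.89-fold higher). Myc, a growth regulator, had 842, 2536 and 371 (3.01-fold higher), in the opposite direction to the dividing cell genes. Klf5 had 590, 1804 and 335. Not every classic member differed, since Egr1 had 2659 and 3572. Of 17 measured CCN genes and targets of Yap and Taz, the effectors of the Hippo pathway, 4 were higher. Ccn2, a matricellular growth factor, had 732 in the heterozygous array, 5983 in the homozygous array and 428 in SDR lactation (8.17-fold higher), and its relative Ccn1 had 101 and 370. Amotl2 had 1184 and 3400, and the coagulation starter F3 352 and 1097.

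Serum response factor is known to bind the CArG box and TEAD factors the letters CATTCC, so the promoters of Klf6 (chr17:69458469-69458728, minus strand) and Ccn2 (chr1:22624605-22624864, minus strand) are shown in the same way. Capitals mark a CArG box in Klf6 and CATTCC on either strand in Ccn2, and neither holds TGANTCA (AP-1) or TGACGTCA (CRE) within the 300 bases searched.
Klf6: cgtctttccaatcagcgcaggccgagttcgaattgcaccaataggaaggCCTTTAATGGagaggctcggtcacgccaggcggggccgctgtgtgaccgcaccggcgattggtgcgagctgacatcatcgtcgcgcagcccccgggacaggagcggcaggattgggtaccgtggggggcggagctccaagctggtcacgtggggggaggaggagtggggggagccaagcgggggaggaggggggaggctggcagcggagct
Ccn2: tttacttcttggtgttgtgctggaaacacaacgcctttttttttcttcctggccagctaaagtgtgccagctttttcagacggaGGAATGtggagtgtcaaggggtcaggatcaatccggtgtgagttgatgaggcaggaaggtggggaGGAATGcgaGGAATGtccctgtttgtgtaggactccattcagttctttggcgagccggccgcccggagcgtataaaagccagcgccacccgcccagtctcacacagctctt

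Ccn2 held 3 TEAD matches, which begin 166, 101 and 92 bases before the start. Over the 12 higher early response genes with a promoter, CATTCC was found in 3 and the CArG box in 2 (16.7%). Over the 45 of all measured members the shares were 17.8% and 13.3%, and over all measured genes 11.4% and 1.42%. TTTGAA, the mitotic element, was found in 4 of the 12 (33.3%, against 11.1% of the 45 and 11.5% of all measured genes), more than either. With 12 promoters, 1 gene moves a share by a wide step.

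Genes of the Stat3 pathway and of early involution also had raised signals: 11 of 28 measured members were higher and 0 lower, and the list's median was 0.87. Stat3 itself, the transcription factor that opens involution, had 1621 in heterozygous HHR, 3359 in homozygous HHR, 1055 in SDR lactation and 10652 in SDR involution (2.07-fold higher in homozygous than in heterozygous HHR). Its target Cebpd had 816, 4992, 559 and 2854 (6.12-fold higher, a log2 difference of 2.61 that was 1.86 with the mean of all probe sets). Tgfb3, a growth factor induced by milk stasis, had 2099, 8809, 4047 and 7209 (4.20-fold higher). For Cebpd and Tgfb3 the homozygous array was above SDR involution, and for Stat3 it was far below it. Igfbp5, which binds insulin-like growth factors, had 1656 and 6181 in heterozygous and homozygous HHR. The receptor Tnfrsf12a had 407 and 1381, and the feedback inhibitor Socs3 was at the floor and 136. The cytokine Lif was at the floor in all 4 arrays.

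Acute phase and bacterial sensing genes were higher in 9 of 28 measured members and lower in 0 (median 0.50), some of which the Stat3 list also holds. Cd14, a receptor for bacterial lipopolysaccharide, had 4533 in the heterozygous array, 16494 in the homozygous array and 5985 in SDR lactation. Tlr2, a receptor for bacterial lipoproteins, had 1218, 4489 and 1042. Cxcl1, which attracts neutrophils, had 145 in the heterozygous array, 1188 in the homozygous array and the floor in SDR lactation (8.20-fold higher in homozygous than in heterozygous HHR). The acute phase protein Saa3 had 3535, 20582 and 14839 (5.82-fold higher), so that here SDR lactation lay nearer the homozygous array. Of 26 measured chemokines and receptors 3 were higher, and their median was 0.05. Neutrophil markers were low: 4 of 9 on the array were above the floor in each HHR array and 5 in at least 1 of them. Their summed signals over all 9 were 929 and 1203, and Camp, Cxcr2, Mmp8 and Mmp9 were at the floor in both. The summed signal of all 16 macrophage markers on the array, 15 of them above the floor in each HHR array, was 14256 in heterozygous and 19004 in homozygous HHR. Of these markers 0 passed 2-fold. The part of immune cells in the acute phase values was not tested.

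**Figure D3:**
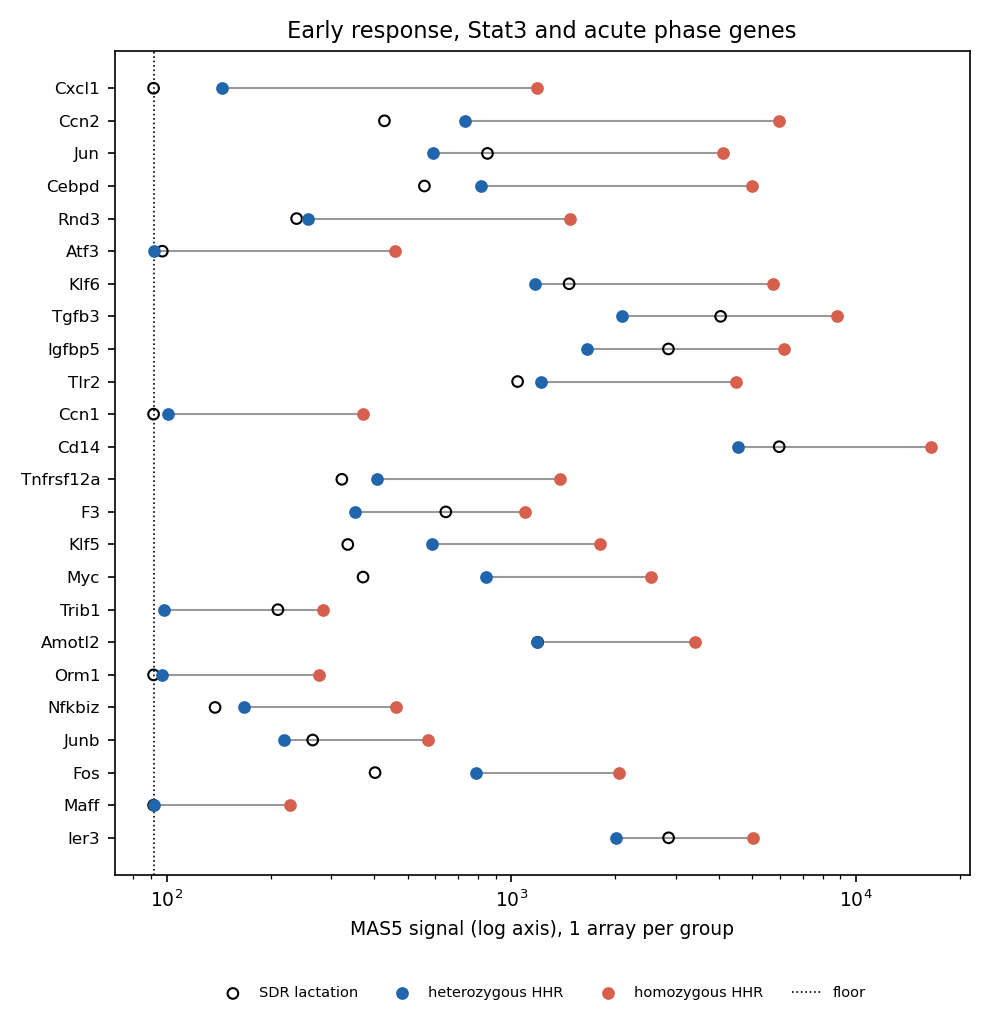
Signals (log axis) of early response, Stat3 and acute phase genes, the 24 with the largest differences among those at least 2-fold higher, for heterozygous HHR, homozygous HHR and SDR lactation, 1 array each, with the floor dotted. The homozygous array is the highest of the 3 in every gene drawn, as in Ccn2 (5983 against 732 and 428) and Jun (4106 against 593 and 852).

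Targets of the glucocorticoid receptor were higher in 7 of 26 measured members and lower in 1 (median 0.61), although Fkbp5 (524 and 415) and the receptor gene Nr3c1 (4266 and 4904) did not reach 2-fold. Pdk4, the kinase that turns off pyruvate dehydrogenase in fasting, had 529 in the heterozygous array, 3914 in the homozygous array and 457 in SDR lactation (7.40-fold higher, a log2 difference of 2.89 that was 2.04 with the mean of all probe sets). Anxa1, an anti-inflammatory phospholipid-binding protein, had 2345, 12820 and 2335 (5.47-fold higher). Angptl4, an inhibitor of lipoprotein lipase, had 1719, 6684 and 1186 (3.89-fold higher). In these genes heterozygous HHR and SDR lactation lay side by side and the homozygous array stood apart. Among alpha-arrestins and pyruvate dehydrogenase kinases 4 of 20 were higher, and Arrdc4 was the largest (455 and 3983, 8.75-fold). Both the glucocorticoid and the alpha-arrestin list were above the 3.76% of all measured genes that were higher. Of 19 glycolysis genes 1 was higher, the regulator Pfkfb3 (197 and 628), a share near that of all measured genes. Of 19 circadian clock genes 2 were higher and 4 lower, above the 3.76% and 3.14% of all measured genes. The repressor Per2 had 1061 and 509 and the output factor Hlf 1012 and 429, while the repressor Bhlhe41 had 362 and 1068. The hour of sampling is not given in the sources used here, and its part was not tested.

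Genes of cell survival and self-digestion, and of the signalling lists given after them, had few calls, with 2 to 4 higher genes a list. In each of these lists the share of higher genes was nevertheless above the 3.76% of all measured genes. Of 30 Bcl2 family and caspase genes 3 were higher and 0 lower (median 0.24, 17 above 0 and 13 below), with the survival factor Mcl1 at 4620 in heterozygous and 13040 in homozygous HHR and the killer gene Bbc3 at 337 and 788. Of 24 autophagy genes 4 were higher, including Gabarapl1 (208 and 786), a coat protein of autophagosomes, and the kinase Ulk1 (1208 and 2712). Of 35 lysosomal genes 3 were higher (median 0.36), such as the protease Ctsl (3950 and 8175). Of 20 p53 and Gadd45 stress genes 3 were higher and 0 lower (median 0.19, 12 above 0 and 8 below). Among these the cell cycle brake Ccng2 had 648 and 2308, and Sesn3, a stress-responsive inhibitor of growth signalling, 287 and 862. Of 13 EGF ligands, ErbB receptors and related genes 3 were higher and 0 lower, among them the receptors Egfr (825 and 1912) and Erbb3 (181 and 460), but 6 were above 0 and 7 below, with a median of -0.03. Of 28 genes of the IGF system and PI3K signalling 2 were higher and 0 lower (median 0.15). Of 18 genes of prolactin receptor and Stat5 signalling 2 were higher, including the Stat5-induced feedback gene Cish (566 and 1333), and 1 was lower, and Stat5a had 2644 and 2742.

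Genes of milk synthesis were mostly within 2-fold of each other in the 2 genotypes, as were most of all measured genes. Their counts are to be read against 3.76% of all measured genes higher and 3.14% lower. The list of lactose synthesis and secretory transport and that of amino acid transporters were above both shares, on few genes each. Of 45 fatty acid and triglyceride genes 1 was higher and 1 lower (median -0.10), and Fasn, the fatty acid synthase, had 31008 in heterozygous and 27710 in homozygous HHR. Of 33 lactose synthesis and secretory transport genes 2 were higher and 2 lower (median -0.09, 14 above 0 and 19 below). Atp2b2, the pump that moves calcium into milk, had 2706 in the heterozygous array, 386 in the homozygous array and 1794 in SDR lactation (7.02-fold lower in homozygous HHR). Abcg2, which carries riboflavin and drugs into milk, had 9915, 3119 and 6249 (3.18-fold lower). Mfsd2a, a carrier of lysophospholipids, had 1368, 392 and 993 (3.49-fold lower). For these 3 genes the homozygous array was below both others, unlike the mitotic genes, where the heterozygous array stood apart. The fatty acid carrier Cd36 (15568 and 7958) and the lactose synthase subunit B4galt1 (12623 and 7057) were lower without reaching 2-fold. Of 18 amino acid transporters 3 were higher and 2 lower: Slc7a6 had 1223 and 283, and Slc6a14 was at the floor and 379, which did not reach 2-fold with the floor at the 55th percentile.

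Keratins, the family that the hairless mutation touches, were little represented. Of the type II keratins 5 were measured and 2 were higher in homozygous HHR, Krt7 (102 and 361) and the hair keratin Krt86 (the floor and 191), while Krt5 had 6633 and 5448 and Krt8 6470 and 9013. None of these values checks the genotype labels. Of 8 measured type I keratins 1 was higher and 1 lower, and 6 had a difference above 0 and 2 below. Their median of 0.54 was 0.06 with the floor at the 25th percentile. The lower one was Krt15, with 2845 in the heterozygous array, 588 in the homozygous array and 1074 in SDR lactation (4.84-fold lower). Cldn4, a tight junction protein, had 866 and 2478.

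Markers of the cell types that the gland could hold had few members past 2-fold, to be read against 3.76% of all measured genes higher and 3.14% lower. The share of higher genes was above that of all measured genes in the luminal, fibroblast and skin epidermis lists, on 1 to 3 genes each. Luminal epithelium markers had a median log2 difference of 0.53 with 1 of 14 measured members past 2-fold. Summed signals, here over all markers of a list on the array, were 76246 in heterozygous and 94608 in homozygous HHR. Fibroblast and matrix markers had a median of 0.31, with 21 of 22 above 0 and 3 higher, among them the proteoglycan Lum (1910 and 4354), and summed signals of 87494 and 122170. Myoepithelium markers (median -0.19, summed signals 69547 and 65832), adipocyte markers (-0.13, 134323 and 114124) and endothelium markers (0.09, 11331 and 12903) had 0 members past 2-fold. Skin epidermis markers had 1 of 4 measured members higher, and nerve and Schwann cell markers 1 of 6 lower. Of the defining markers, Kit and Aldh1a3 (luminal), Lep (adipocyte), Flt4 (lymphatic endothelium) and Itgam (myeloid cells) were at the floor in both arrays. The part of cell makeup in the results above was not tested. Among genes common to all cells, 43 ribosomal protein genes had a median of -0.13, with 35 below 0. The 74 respiratory chain genes had one of -0.15, with 61 below 0, and 0 were past 2-fold in either list. Proteasome genes lay lower, with 31 of 33 below 0, a median of -0.38 and 0 past 2-fold.

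**Figure D4:**
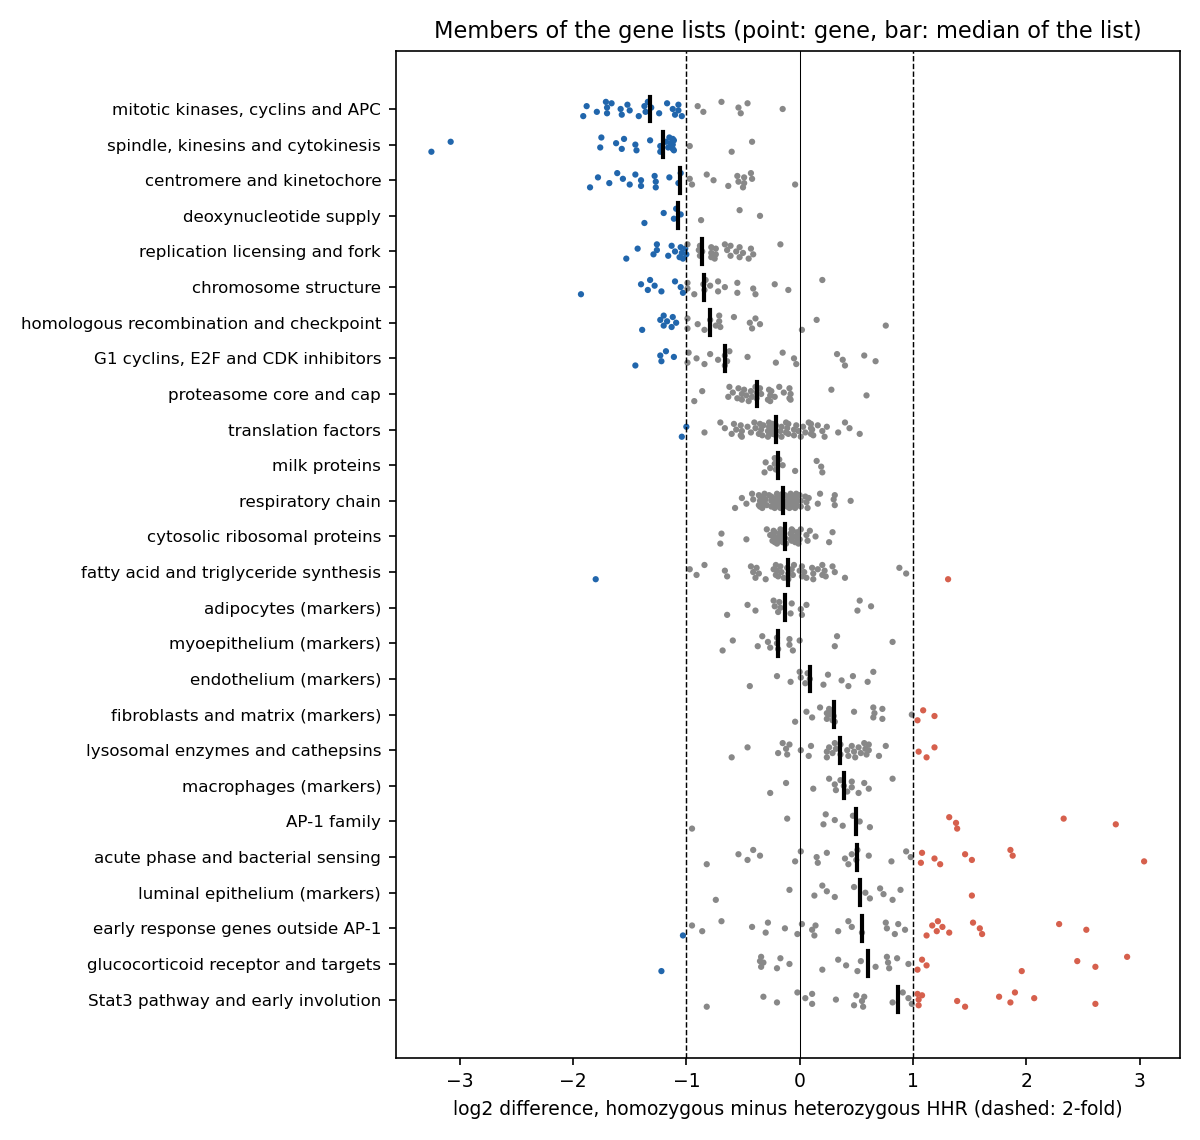
Log2 difference (homozygous minus heterozygous HHR, 1 array each) of each measured member of 26 gene lists, with a bar at the list's median and dashed lines at 2-fold. The 8 dividing cell lists at the top have medians between -1.32 and -0.66, and the Stat3 list at the bottom has 0.87.

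The largest single differences fell partly outside the lists. Foxq1, a forkhead transcription factor of epithelia, had 133 in the heterozygous array, 1468 in the homozygous array and 179 in SDR lactation, 11.1-fold higher and the largest among genes above the floor in both HHR arrays whose probe sets all ran the same way. Rnf39, a ring finger protein, had 300, 2303 and 529 (7.68-fold higher). Card14, an activator of NF-kappa-B in epithelia, had 164, 1101 and the floor (6.70-fold higher). Among genes at the floor in heterozygous HHR, the epoxide hydrolase gene Ephx2 was the brightest in homozygous HHR with 933, at least 10.2-fold higher. On the lower side, C2cd4b had 3131 in the heterozygous array, 681 in the homozygous array and 7289 in SDR lactation (4.60-fold lower), and Gdap1, a mitochondrial fission factor, had 3310, 752 and 454 (4.40-fold lower). SDR lactation thus lay above both HHR arrays in C2cd4b and below both in Gdap1.

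Which HHR array stood apart from SDR lactation differed between the groups of genes. Of the 99 lower dividing cell genes SDR lactation was nearer homozygous HHR in 97 (98.0%) and at or below both HHR arrays in 75. Their median log2 difference from SDR lactation was 1.65 in heterozygous and 0.27 in homozygous HHR. Of the other 242 lower genes it was nearer homozygous HHR in 160 (66.1%). Of the 20 higher early response genes it was nearer homozygous HHR in 3, with median differences from SDR lactation of -0.12 in heterozygous and 1.41 in homozygous HHR. Over all 409 higher genes the share was 43.5%. These genes were chosen by their HHR values. Over all measured members, medians of the 8 dividing cell lists against SDR lactation were 0.64 to 1.77 in heterozygous and -0.09 to 0.53 in homozygous HHR. Those of the 3 early response lists were -0.21 to 0.0 and 0.29 to 0.54. SDR lactation was nearer homozygous HHR in 2 of 14 AP-1 genes, 14 of 33 other early response genes and 8 of 17 CCN genes and Yap/Taz targets. Against a single SDR array, dividing cell signals were thus high in the heterozygous array. Early response signals were raised in the homozygous one, by less over whole lists than in the 20 genes.

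SDR involution against SDR lactation is a pair that shares no array with the HHR pair, so the genes can be followed there. Of 403 genes higher in homozygous HHR and measured in both pairs, 146 were at least 2-fold higher in involution (36.2%, and 13.6% of the 1075 genes higher in involution), against 10.2% of all 10496 genes measured in both. In the opposite direction 23 (5.71%) were lower in involution, against 9.34% of all. Of 326 lower genes 106 (32.5%, and 10.8% of the 980 lower in involution) were lower there and 19 (5.83%) higher. Outside the dividing cell lists 53 of 231 lower genes (22.9%) were lower in involution and 19 (8.23%) higher. Of all 10301 genes outside these lists 904 were lower and 1068 higher in involution. Across the 10496 genes the log2 differences of the 2 pairs correlated with r = 0.23 and, without the dividing cell lists, with r = 0.20, a description over genes that share the same arrays. In the SDR pair the 3′ to 5′ ratio of Gapdh was 1.17 in lactation and 1.60 in involution, a difference in the same direction as from heterozygous to homozygous HHR. That of actin was 4.60 and 4.80, the opposite direction to the HHR pair, and the part of either was not tested.

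The genes that differed most in both pairs were ranked by the smaller of their 2 log2 differences, with values at the floor kept in as lower bounds. On the higher side Cxcl1 came first, with the floor in SDR lactation and 1046 in SDR involution, followed by Pdk4 (457 and 10724) and Card14 (the floor and 12657). Sdr16c5, a retinol dehydrogenase, came next, with the floor in heterozygous and 524 in homozygous HHR and 193 and 4175 in SDR lactation and involution. Anxa1 (2335 and 33255) and Ccn2 (428 and 2262) completed the 6 genes. On the lower side the calcium pump Atp2b2 came first, with 1794 in SDR lactation and the floor in involution, and C2cd4b had 7289 and the floor. Gdap1 (454 and 117) followed, and the last 3 belong to mitosis, namely Cdca2 (332 and the floor), Ube2c (1203 and 167) and Cdc20 (720 and 129). Other genes differed between the pairs. Fasn, nearly equal in both genotypes, had 33682 in SDR lactation and 4604 in involution. Myc, higher in homozygous HHR, had 371 and 207, and Arrdc4 had 808 and 830.

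**Figure D5:**
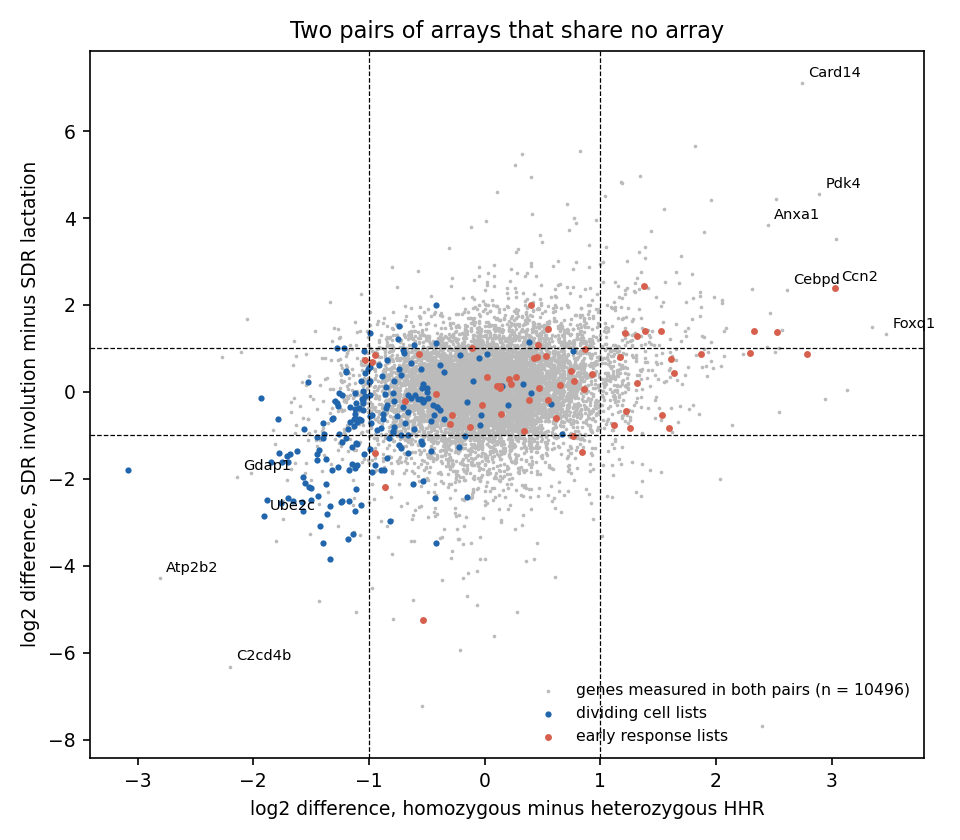
Log2 difference of homozygous minus heterozygous HHR (horizontal) against that of SDR involution minus SDR lactation (vertical) for 10496 genes measured in both pairs, 1 array per group, with dashed lines at 2-fold and dividing cell and early response lists coloured. Pdk4, Anxa1 and Card14 lie at the upper right and Ube2c, Atp2b2 and C2cd4b at the lower left, within a broad cloud of r = 0.23.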

How the data were processed

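Total RNA of rat mammary gland was turned into biotinylated cRNA and hybridised to 4 Affymetrix arrays, per the labels' protocols. The authors deposited MAS5 signals (linear intensity values, 1 per probe set), per the submitters' processing notes. The sources used here give no MAS5 parameters or detection calls. Of 31099 probe sets 57 were controls. The platform annotation listed a single symbol for 20826 probe sets, which were used; 436 had several and 9780 had none. Values under the floor (91.5) were raised to it before log2 was taken, and a gene was its probe set with the highest mean over the 4 arrays. Folds against a value at the floor are lower bounds. With 1 array per group there was no test, and the number of arrays limits the precision. The floor hides differences of weakly expressed genes.

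Differences of at least 2-fold were counted among genes above the floor in 1 or both HHR arrays, and lists were described by counts and medians. Named genes were the 15 largest in each direction with all probe sets in the same direction, the 6 brightest in each direction at the floor in 1 array, the 6 in each direction with the largest smaller difference over both pairs that share no array, and members of the 58 lists. A selection of these is given. The members and lists were chosen with earlier results of these data known. Promoters came from a RefSeq table of build GRCr8, with the first entry per gene. The steps were tested on simulated data. Alternatives were median centring, quantile normalization, floors at the 25th and 55th percentile, the floor as pseudocount, the mean of all probe sets, other choices of probe set and a 3-fold threshold. Python 3.11.15, numpy 2.4.6 and pandas 2.3.3 were used.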

Additional observations from a re-analysis of the deposited data

How the results depend on the processing

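The count of higher genes (409) was 637 with the floor at the 25th percentile, 262 with the floor as a pseudocount and 86 at 3-fold, and the count of lower genes (341) was 551, 219 and 44 under the same settings. These settings change what is counted by construction, through the floor or the threshold. Of the 13 counts of list members tried, 5 moved by over 1.5 times under 1 setting each. With the floor as a pseudocount, lower replication genes were 6 in place of 13, lower deoxynucleotide genes 3 in place of 5, lower recombination genes 4 in place of 8, and higher early response genes outside AP-1 were 7 in place of 11. With the mean of all probe sets, lower G1 genes were 3 in place of 5. Of 464 list medians under an alternative 454 moved by less than 0.25 on the log2 scale, and 8 in 6 lists changed sign, most from near 0. With the floor at the 55th percentile the median became 0.48 for EGF ligands and ErbB receptors (main -0.03), -0.13 for T and NK cells (0.05), 0.22 for skeletal muscle (-0.15) and 0.27 for skin epidermis (-0.32). With the floor at the 25th percentile it became -0.07 for type II keratins (0.48) and 0.03 for the EGF list, which had 0.22 without shared-probe suffixes, and glycolysis had 0.01 (-0.04) after quantile normalization. Single genes were tried for the 43 named by size, by brightness at the floor or by both pairs. Of their 344 values 8 fell short of 2-fold, each with the floor at the 55th percentile, and 0 changed sign. Genes named only as list members were not tried singly, and many of them have a signal near the floor. With the floor as a pseudocount the log2 difference was 2.80 for Foxq1 (main 3.47) and 2.44 for Cxcl1 (3.04), and folds of genes at the floor in 1 array follow the floor by construction. No paired analysis was possible because each group had 1 array. For the same reason no replicate could be left out, and every difference between the HHR arrays may belong to the animals sampled.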

Other observations

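Heat shock and amino acid stress genes had few members past 2-fold, to be read against 3.76% of all measured genes higher and 3.14% lower. Of 17 cytosolic heat shock genes 1 was higher and 2 were lower (median -0.12): the co-chaperone Dnajb4 had 597 in heterozygous and 1250 in homozygous HHR, Hsph1 had 1893 and 882, and Stip1 had 3125 and 1493. Of 32 targets of Atf4 and genes of the unfolded protein response 1 was higher and 1 lower (median -0.21), shares close to those of all measured genes. They were the cystine carrier Slc7a11 (96 and 207) and the leucine carrier Slc7a5 (472 and 202).

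In TGF-beta and activin signalling 4 of 31 measured genes were higher, against 3.76% of all measured genes, and 0 lower (median 0.25). Inhbb, the activin B subunit, was at the floor in heterozygous HHR and 319 in homozygous HHR, and Tgif1, a repressor of Smad targets, had 752 and 2180. Of 16 complement genes 2 were higher (median 0.51), Cfi (138 and 370), which cleaves C3b, and the receptor C5ar1 (119 and 330). Of 32 interferon response genes 1 was higher, Usp18 (98 and 206), a share close to that of all measured genes, and the median was 0.26.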
